A study of Mus musculus with 15 samples.

Results

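Serum response factor (Srf) and 9 genes of the actin cytoskeleton were followed in whole mouse pancreas after an injection that elicits acute pancreatitis. The other members are the cytoplasmic actins Actb and Actg1, the tropomyosins Tpm1, Tpm2, Tpm3 and Tpm4, the adhesion protein vinculin (Vcl), the crosslinker filamin A (Flna) and the myosin heavy chain Myh9. They were chosen by name, with earlier results of these data known. Every probe whose RefSeq accession maps to one of them was taken, which gave 10 of the 20660 genes with a named probe on the array. These 10 genes have 23 probes, of which 22 were well above background on at least 3 arrays and were tested.

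Male C57BL/6J mice in 4 groups were compared, with 1 array of whole-pancreas RNA per animal. They were 4 transgenic (TG) mice given cerulein, 4 wild type (WT) mice given cerulein, 3 TG mice given saline and 4 WT mice given saline. Cerulein is a cholecystokinin analogue that overstimulates the acinar cell, the enzyme-secreting cell of the pancreas. All animals had fasted for 18 h and were killed 3 h after a single intraperitoneal injection, which held 50 µg/kg cerulein in the cerulein groups. In the titles, saline mice are marked 0 h. The series title concerns betacellulin, a ligand of the EGF receptor family encoded by Btc, but the labels say only that the TG animals are transgenic, and the transgene's promoter is not given in the sources used here. The labels number the mice separately, so no animal is shared between groups.

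SRF is a transcription factor that binds the CArG box, a short AT-rich element. Free actin monomers hold its cofactors MRTF-A and MRTF-B in the cytoplasm, and when monomers are used up in filaments the cofactors enter the nucleus and SRF transcribes actin, tropomyosin, vinculin and SRF itself. A separate group of cofactors, the ternary complex factors, couples SRF to ERK signalling and to immediate early genes such as Fos and Egr1. In the acinar cell, filaments under the apical membrane take part in enzyme secretion, and they are known to be disturbed when cholecystokinin receptors are overstimulated.

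The promoters of Srf, Actg1 and Vcl are shown because they hold a CArG box in the 250 bases before to 50 bases after the annotated transcript start. The sequences are RefSeq windows on build GRCm38.p6, written 5′ to 3′ on the strand of the gene, with the CArG boxes in capitals. The box reads as a box on both strands, so each one is counted once, and none overlaps another.
Srf, chr17:46556113-46556412, minus strand: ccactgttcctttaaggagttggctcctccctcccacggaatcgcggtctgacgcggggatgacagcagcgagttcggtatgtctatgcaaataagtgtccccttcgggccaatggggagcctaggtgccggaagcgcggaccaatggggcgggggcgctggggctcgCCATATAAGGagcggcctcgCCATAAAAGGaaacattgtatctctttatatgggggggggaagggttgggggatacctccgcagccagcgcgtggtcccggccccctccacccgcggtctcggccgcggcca
Actg1, chr11:120348446-120348745, minus strand: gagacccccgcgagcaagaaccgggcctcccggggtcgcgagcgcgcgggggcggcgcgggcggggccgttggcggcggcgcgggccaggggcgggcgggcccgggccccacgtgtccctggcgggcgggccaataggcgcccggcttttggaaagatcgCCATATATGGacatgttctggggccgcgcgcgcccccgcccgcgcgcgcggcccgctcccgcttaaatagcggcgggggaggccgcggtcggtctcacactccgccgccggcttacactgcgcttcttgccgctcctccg
Vcl, chr14:20929148-20929447, plus strand: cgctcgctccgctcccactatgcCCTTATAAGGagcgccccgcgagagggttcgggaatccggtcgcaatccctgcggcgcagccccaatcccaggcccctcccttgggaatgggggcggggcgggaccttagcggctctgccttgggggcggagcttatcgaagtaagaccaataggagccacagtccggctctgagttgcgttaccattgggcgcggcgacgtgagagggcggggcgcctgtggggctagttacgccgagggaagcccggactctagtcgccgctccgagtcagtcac
Srf has boxes at -82 to -73 and at -62 to -53 from the start, Actg1 has one at -90 to -81, and Vcl has one at -227 to -218. Of 32851 such windows in the RefSeq table, 535 (1.63%) hold a box, against 3 of the 10 windows found for 9 member genes (Tpm3 has 2). Tpm1, Tpm2, Tpm3, Tpm4, Flna and Myh9 have no box in their windows. No window was found for Actb, so its promoter was not examined. With 1 mismatched base allowed, 7 of the 10 member windows match, against 21.1% of all windows. A match is a description of the letters and not of binding.

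**Figure D1:**
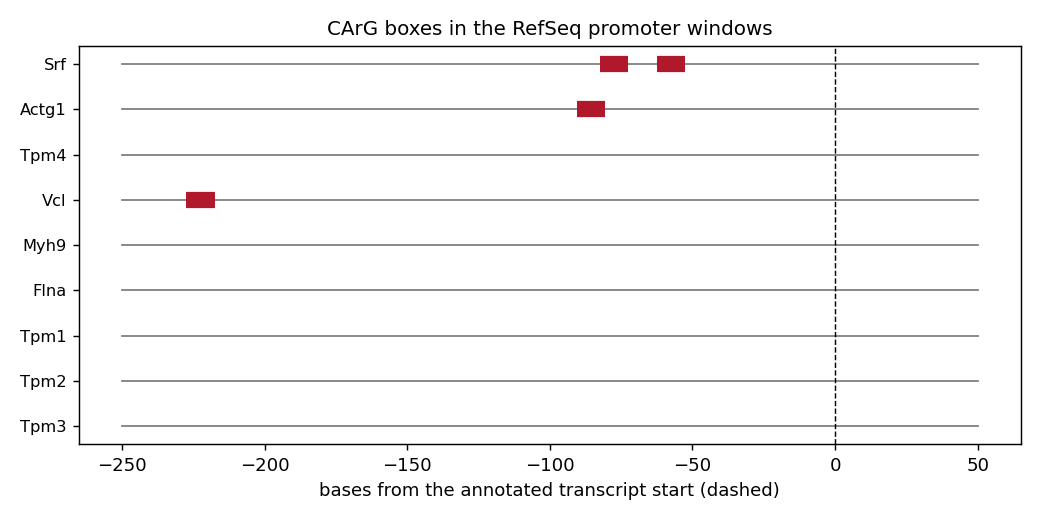
Positions of CArG boxes (red blocks) in the promoter windows of the member genes, in bases from the annotated transcript start (dashed line). Srf has boxes at -82 to -73 and -62 to -53, Actg1 at -90 to -81 and Vcl at -227 to -218, and the other windows drawn have none. No window was found for Actb, which is not drawn.

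Levels are given as log2 signal minus the array's 75th percentile, so that 1 unit is a doubling and 0 is the brightness of the array's upper quartile probe. Values of single arrays follow the replicate numbers, which are 13 to 16 in TG cerulein, 9 to 12 in WT cerulein, 2 to 4 in TG saline and 5 to 8 in WT saline mice. Levels compare the same probe between arrays and not 1 probe with another. A difference is called when limma's two-sided p, adjusted by Benjamini-Hochberg over all 42191 kept probes, is below 0.05, and errors of differences are standard errors (SE). Where a gene has several probes, it is read from its brightest one, called probe 1, and the others are given beside it. The 15 arrays lie on 3 slides of 5, 3 and 7 arrays, and slide 2 holds cerulein arrays only (TG replicate 16, WT replicates 11 and 12). The share of probes well above background was 54.9% to 76.1% per array, no spot was saturated, and the 75th percentile ran between 152.3 and 528.9 intensity units. The Btc probe did not separate the genotypes: TG cerulein exceeded WT cerulein by 0.49 ± 0.45 (log2, SE) and TG saline exceeded WT saline by 0.55 ± 0.49, with overlapping arrays in both cases. It was not well above background on TG saline replicate 3 or on WT saline replicates 5, 7 and 8, so the saline difference rests partly on arrays near background. The position of this probe is not given, so whether it can read the transgene is unknown, and the animals are called TG as labelled throughout.

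Most of the member genes were strongly higher 3 h after cerulein, in both genotypes, and none was called lower. In TG mice 6 of 10 genes rose (Srf, Actb, Actg1, Tpm4, Vcl and Myh9), where 4.29% of all 17347 measured genes rose and 2.73% fell. In WT mice the same 6 genes rose, where 4.87% of all genes rose and 6.35% fell. Since the members were chosen with earlier results of these data known, their counts beside these shares are a description and not a test. Tpm1 rose by other probes than its brightest, so 7 of the 10 genes had at least 1 probe that rose in each genotype. Over probes, 16 of 22 rose in each genotype, against 3.29% of all probes in TG and 4.05% in WT. One of these 16, Vcl probe 2, passed the filter on dim probes through its cerulein arrays. The median difference over the 10 genes was 1.71 in TG and 1.78 in WT (log2), and over all measured genes it was -0.06 in each. With slide as a block 7 of 10 genes rose in each genotype, where the share of all genes that rose was 14% in TG and 12.3% in WT. Every cerulein array was above every saline array of the same genotype for 9.94% of all genes in TG and for 7.34% in WT. Whole tissue was measured, so a change in the cells present and a change in RNA per cell cannot be told apart.

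**Figure D2:**
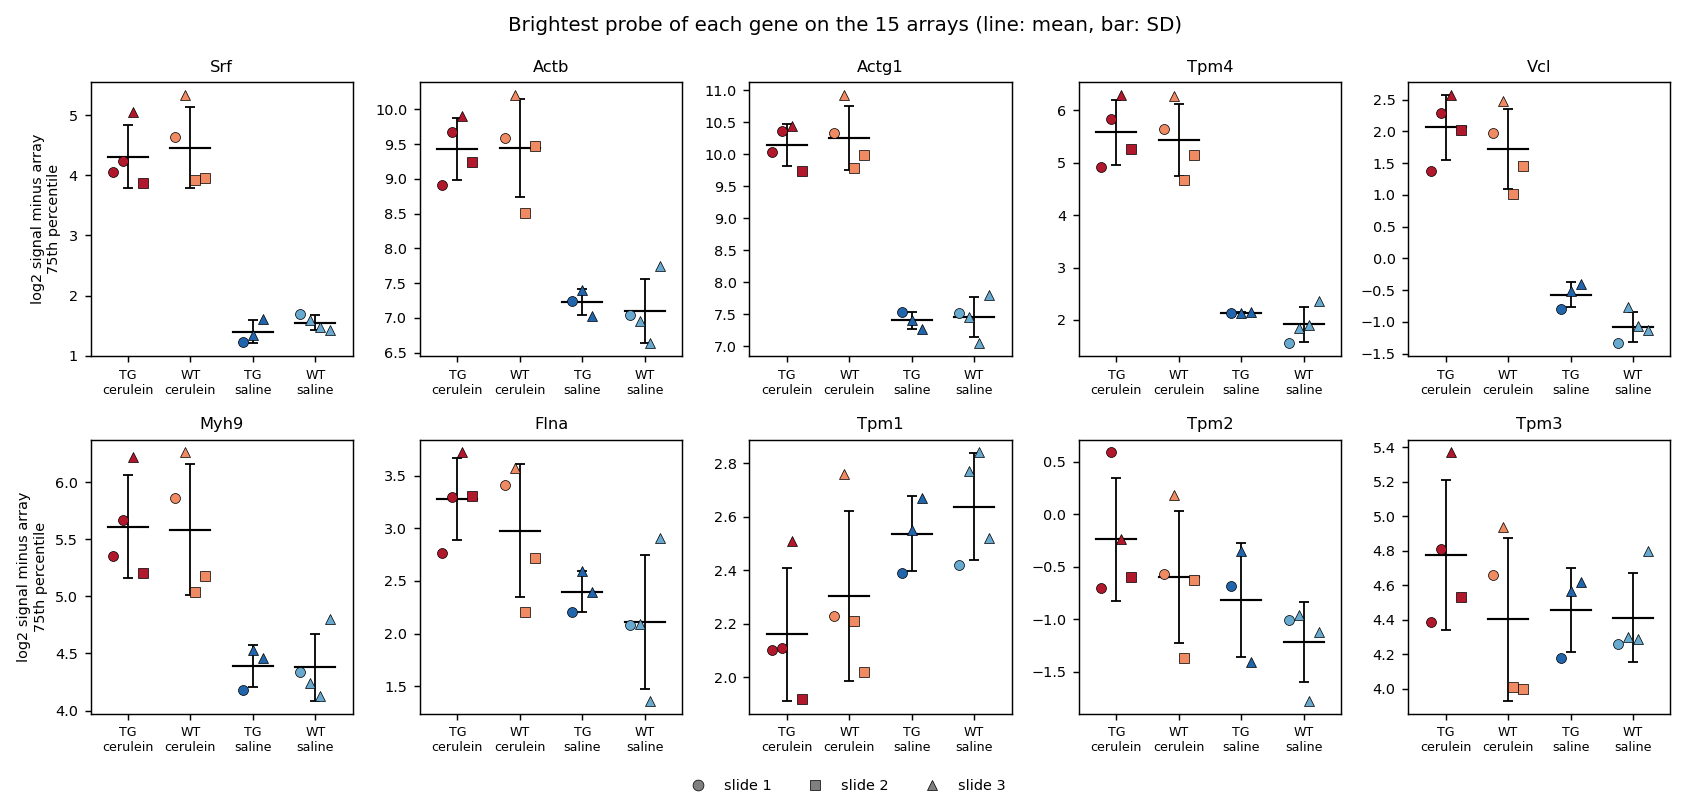
Level of the brightest probe of each member gene on every array (y axis, log2 signal minus the array's 75th percentile) in the 4 groups (x axis), with the group mean (line) and SD (bar), and marker shape for slide. For Srf, Actb, Actg1, Tpm4, Vcl and Myh9 every cerulein array lies above every saline array of both genotypes, while Tpm1 probe 1, Tpm2 and Tpm3 overlap.

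Srf itself, read from 2 probes of NM_020493, rose in both genotypes. Probe 1 read 4.06, 4.24, 5.06 and 3.87 in TG cerulein mice, against 1.23, 1.35 and 1.61 in TG saline mice. In WT cerulein mice it read 4.63, 5.34, 3.92 and 3.96, against 1.70, 1.60, 1.47 and 1.42 in WT saline mice. The lowest cerulein array, at 3.87, stood far above the highest saline array, at 1.70, and the saline arrays were close together (SD 0.19 in TG, n = 3, and 0.13 in WT, n = 4). The difference was 2.91 ± 0.34 in TG (7.51-fold, adjusted p = 0.000183) and 2.91 ± 0.32 in WT (7.54-fold, adjusted p = 6.56e-05). Probe 2 gave 3.66 ± 0.32 in TG (12.7-fold) and 3.51 ± 0.30 in WT (11.4-fold), so both probes ran the same way and differed in size. In each cerulein group the slide 3 array was the highest, and within slide 3 alone the probe 1 difference was 3.58 in TG and 3.84 in WT. Within slide 1 it was 2.92 in TG and 2.93 in WT.

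Both cytoplasmic actins, the building blocks of the filament in non-muscle cells, rose. Actb (NM_007393), the beta actin, read 8.91, 9.67, 9.91 and 9.24 in TG cerulein mice, against 7.24, 7.40 and 7.03 in TG saline mice. It read 9.59, 10.21, 8.51 and 9.47 in WT cerulein mice, against 7.04, 6.96, 6.64 and 7.74 in WT saline mice. No cerulein array overlapped a saline array, though the lowest WT cerulein array, at 8.51, came within 1 unit of the highest WT saline array. Actb differed by 2.21 ± 0.37 in TG (4.62-fold, adjusted p = 0.00271) and by 2.35 ± 0.35 in WT (5.10-fold, adjusted p = 0.000687). Actb is often used to scale gene expression between samples, and these levels were scaled without it.

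Actg1 (NM_009609), the gamma actin, has 5 probes. The brightest read 10.03, 10.36, 10.44 and 9.73 in TG cerulein mice, against 7.53, 7.41 and 7.26 in TG saline mice. WT mice read 10.33, 10.93, 9.79 and 9.99 after cerulein, against 7.51, 7.46, 7.04 and 7.80 after saline. All arrays of the cerulein groups were more than 1 unit above all arrays of the saline groups. The difference was 2.74 ± 0.29 in TG (6.68-fold, adjusted p = 6.33e-05) and 2.80 ± 0.26 in WT (6.99-fold, adjusted p = 1.88e-05). The other 4 probes gave 2.70 to 4.61 in TG and 2.89 to 4.27 in WT, all called. The dimmest of the 5, probe 5, had the largest difference in each genotype, 4.61 ± 0.38 in TG and 4.27 ± 0.35 in WT. The 2 actins are near-identical in their coding sequence and have processed copies in the genome, and how far each probe also reads the other gene or a copy was not tested.

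The tropomyosins, coiled-coil proteins that lie along the filament and set which myosins and crosslinkers can bind it, did not move together. Tpm4 (NM_001001491), a cytoplasmic form, read 4.92, 5.84, 6.30 and 5.26 in TG cerulein mice, against 2.14, 2.13 and 2.15 in TG saline mice. WT mice read 5.65, 6.28, 4.68 and 5.15 after cerulein, against 1.55, 1.85, 1.90 and 2.36 after saline. The 3 TG saline arrays were almost equal, and every cerulein array exceeded them by more than 2 units. Tpm4 rose by 3.44 ± 0.38 in TG (10.9-fold, adjusted p = 0.000101) and by 3.52 ± 0.35 in WT (11.5-fold, adjusted p = 3.02e-05), the largest difference among the 10 genes when each is read from its brightest probe.

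Tpm1, which encodes muscle and non-muscle forms through alternative promoters and exons, was the gene whose probes disagreed. Its 5 probes are assigned to 4 transcript accessions, and their positions are not given. Probe 1 (NM_001164255) read 2.10, 2.11, 2.51 and 1.92 in TG cerulein mice, against 2.39, 2.55 and 2.67 in TG saline mice. In WT it read 2.23, 2.76, 2.21 and 2.02 after cerulein, against 2.42, 2.77, 2.84 and 2.52 after saline. The groups overlapped, and the difference was -0.38 ± 0.23 in TG (adjusted p = 0.411) and -0.34 ± 0.21 in WT (adjusted p = 0.315).

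Probe 4 (NM_001164248) behaved differently from probe 1 on the same arrays. It read 2.22, 2.39, 2.84 and 1.75 in TG cerulein mice, against -2.02, -1.49 and -1.43 in TG saline mice. In WT it read 2.68, 3.30, 1.83 and 1.53 after cerulein, against -1.51, -0.85, -1.27 and -1.43 after saline. The groups were separated by more than 2 units in both genotypes. Probe 4 rose by 3.95 ± 0.39 in TG (15.4-fold, adjusted p = 3.81e-05) and by 3.60 ± 0.36 in WT (12.1-fold, adjusted p = 3.02e-05), and probe 5, of the same accession, rose by 3.76 ± 0.39 in TG and by 3.57 ± 0.36 in WT. Probe 2 (NM_001164249) rose less, by 1.41 ± 0.35 in TG (adjusted p = 0.0273) and by 1.19 ± 0.32 in WT (adjusted p = 0.0335). Probe 3 (NM_001164251) rose by 1.52 ± 0.34 in TG (adjusted p = 0.0155) and by 1.66 ± 0.31 in WT (adjusted p = 0.00402).

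The disagreement was measured within arrays, as the cerulein difference of each other probe minus that of probe 1, a comparison chosen after the values were seen. For probe 2 this excess was 1.79 in TG and 1.52 in WT (log2). For probe 3 it was 1.90 in TG and 1.99 in WT. For probe 4 it was 4.32 in TG and 3.94 in WT, and for probe 5 it was 4.14 in TG and 3.91 in WT. In each of these 8 comparisons every cerulein array exceeded every saline array in the within-array difference. An exact permutation test over arrays gave each a two-sided p of 0.0286, the smallest it can give, before and after Benjamini-Hochberg adjustment. The 8 share probe 1 and were chosen after the values were seen, so this p restates the separation and is not a test of it. Under the array median as scale the rises of probes 2 and 3 were no longer called (adjusted p of 0.147 and 0.109 in TG, and of 0.176 and 0.0537 in WT), and the rises of probes 4 and 5 were called. The probe 2 call was also lost without TG cerulein replicate 14 or 15 or any 1 TG saline replicate (adjusted p up to 0.135), and in WT without cerulein replicate 9 or any 1 saline replicate (adjusted p up to 0.0849). The probe 3 call in TG was lost without cerulein replicate 14 or any 1 TG saline replicate (adjusted p up to 0.0648).

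**Figure D3:**
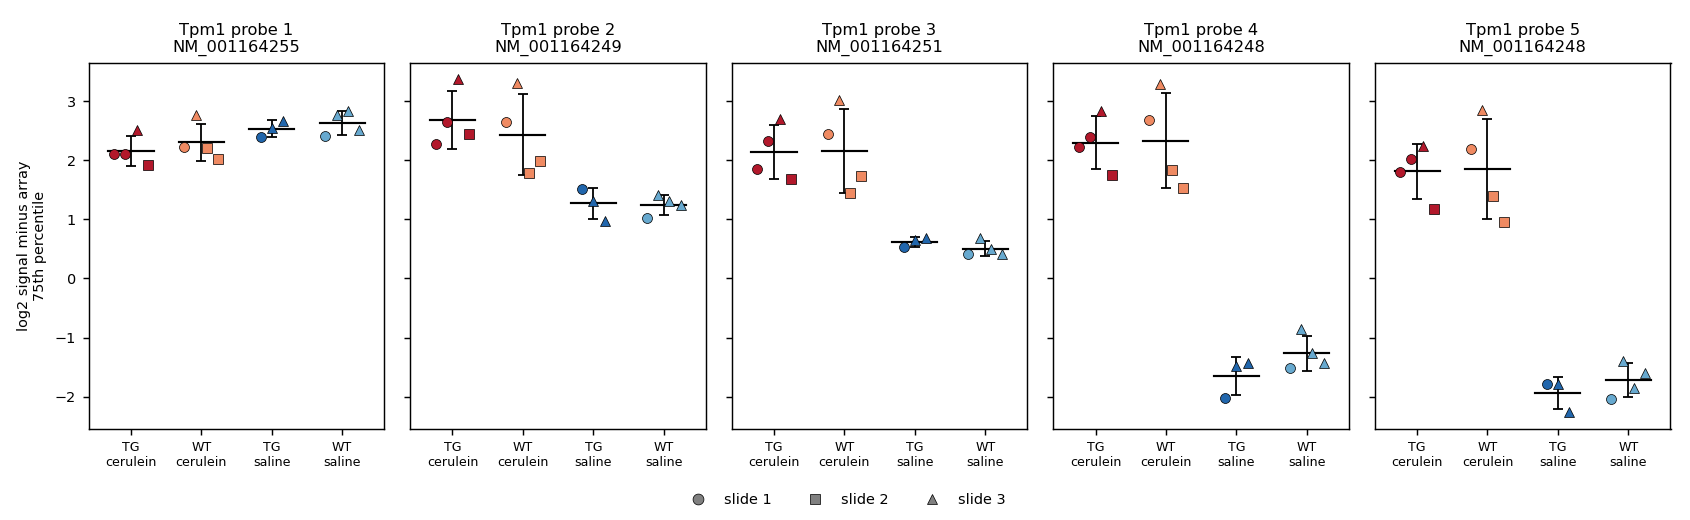
The 5 Tpm1 probes on every array (y axis, log2 signal minus the array's 75th percentile), by group, with the mean (line), SD (bar) and marker shape for slide; the transcript accession of each probe is above its panel. Probe 1 overlaps between cerulein and saline arrays, while probes 4 and 5 lie between 0.95 and 3.30 in cerulein arrays and between -2.26 and -0.85 in saline arrays.

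Tpm2 (NM_009416), the beta tropomyosin of skeletal and smooth muscle, was not called. Its probe 1 ranged over -0.70 to 0.59 in TG cerulein mice and -1.41 to -0.35 in TG saline mice, and over -1.37 to 0.18 in WT cerulein mice and -1.78 to -0.96 in WT saline mice. The difference was 0.58 in TG (95% interval -0.27 to 1.43) and 0.62 in WT (-0.17 to 1.41), which leaves room for a doubling. With array weights it was called in TG (1.07, adjusted p = 0.0231). Tpm3 probe 1 (NM_001253738), of a gene with cytoplasmic and slow-muscle forms, differed by 0.32 in TG (95% interval -0.32 to 0.95) and by -0.01 in WT (-0.60 to 0.58). Tpm3 probe 2 differed by 0.47 ± 0.28 in TG and by -0.14 ± 0.26 in WT, and Tpm3 probe 3 was not well above background on any array. With slide as a block Tpm3 probe 1 was called in TG at 0.60 (adjusted p = 0.0498), and not in WT at 0.41 (adjusted p = 0.193). The 4 tropomyosin genes therefore held 1 gene that rose by its brightest probe, 1 whose probes disagreed and 2 that were not called.

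Vcl (NM_009502), which links integrin adhesions and cell junctions to actin filaments, rose by its brightest probe. Probe 1 read 1.37, 2.29, 2.57 and 2.02 in TG cerulein mice, against -0.79, -0.51 and -0.41 in TG saline mice. WT mice read 1.97, 2.47, 1.01 and 1.45 after cerulein, against -1.34, -0.77, -1.06 and -1.13 after saline. The lowest cerulein array, at 1.01 on slide 2, was above the highest saline array, at -0.41. The difference was 2.63 ± 0.34 in TG (6.19-fold, adjusted p = 0.000367) and 2.80 ± 0.32 in WT (6.96-fold, adjusted p = 8.71e-05). Probe 2 was well above background on all 8 cerulein arrays, on 0 of 3 TG saline arrays and on 1 of 4 WT saline arrays. In TG its means were -1.95 after cerulein and -5 after saline (adjusted p = 0.00117), and no fold is given since no TG saline array was well above background. In WT its means were -1.97 after cerulein and -4.81 after saline (adjusted p = 0.000812), and no fold is given since the saline mean rests mostly on arrays near background. With normexp background correction probe 2 was not called, at 0.60 in TG (adjusted p = 0.116) and 0.39 in WT (adjusted p = 0.22).

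Myh9 (NM_022410), the heavy chain of non-muscle myosin IIA, the motor that pulls on actin filaments, rose by less. It read 5.35, 5.67, 6.22 and 5.20 in TG cerulein mice, against 4.18, 4.53 and 4.46 in TG saline mice. In WT it read 5.86, 6.26, 5.04 and 5.18 after cerulein, against 4.34, 4.24, 4.13 and 4.80 after saline. The groups did not overlap, but the lowest WT cerulein array (5.04) and the highest WT saline array (4.80) were close. The difference was 1.22 ± 0.32 in TG (2.33-fold, adjusted p = 0.0381) and 1.21 ± 0.30 in WT (2.31-fold, adjusted p = 0.021). With slide as a block it was 1.53 in TG (adjusted p = 0.000326) and 1.70 in WT (adjusted p = 0.000183). Under the array median it was not called (adjusted p = 0.198 in TG and 0.15 in WT). The TG call was lost without TG cerulein replicate 14 or 15, any 1 TG saline replicate, or WT saline replicate 6 or 7 (adjusted p up to 0.118), and the WT call without WT cerulein replicate 9 or WT saline replicate 6 or 7 (adjusted p up to 0.0716).

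Flna (NM_010227), which crosslinks actin filaments into networks and ties them to membrane proteins, did not pass the test. It read 2.77, 3.30, 3.72 and 3.31 in TG cerulein mice, against 2.21, 2.59 and 2.40 in TG saline mice. WT mice read 3.41, 3.57, 2.21 and 2.72 after cerulein, against 2.08, 2.09, 1.36 and 2.91 after saline. The TG groups did not overlap and the WT groups did. The difference was 0.88 ± 0.38 in TG (adjusted p = 0.224) and 0.87 ± 0.35 in WT (adjusted p = 0.142). With slide as a block it was 1.12 in TG (adjusted p = 0.0554) and was called in WT at 1.24 (adjusted p = 0.0427). It was also called in WT with quantile normalisation (1.01, adjusted p = 0.0495) and in TG with array weights (0.76, adjusted p = 0.043).

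**Figure D4:**
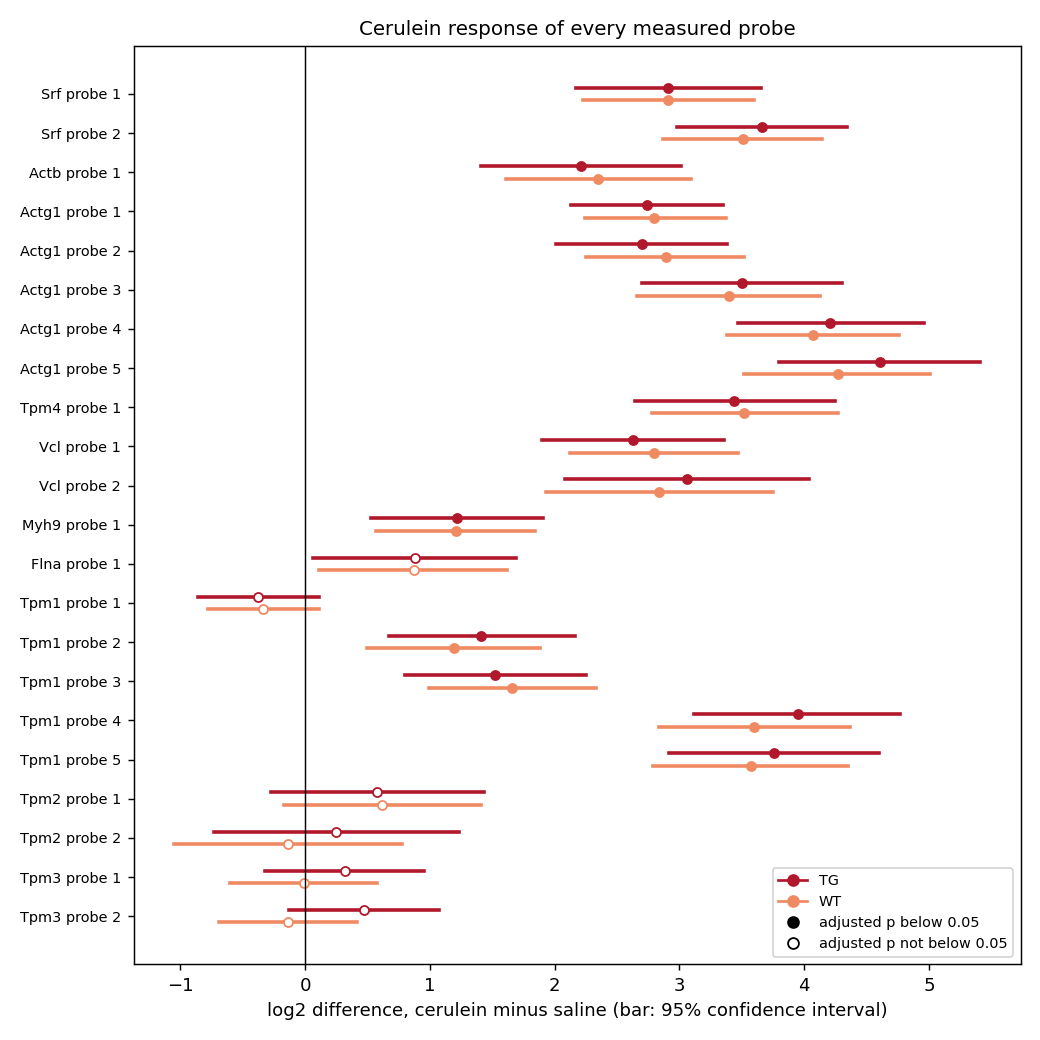
Cerulein minus saline difference (x axis, log2) of each of the 22 tested probes in TG and WT mice, with its 95% confidence interval; filled points have an adjusted p below 0.05. The TG and WT intervals overlap for each probe, and the open points are Flna, Tpm1 probe 1 and the probes of Tpm2 and Tpm3.

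With slide 2 left out, which has no saline array, 6 of the 10 genes rose in each genotype. Each of the 16 called probes was larger with slide as a block than without it, in TG and in WT. Within slide 1 these 16 probes differed by 0.95 to 4.33 in TG and by 1.53 to 4.46 in WT, and within slide 3 by 1.72 to 5.33 in TG and by 1.87 to 5.12 in WT. These within-slide values rest on 1 to 3 arrays per group and carry no test.

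No member gene was called between the genotypes. Between TG cerulein and WT cerulein 0 of 10 genes and 0 of 22 probes were called, where 0.0922% of all genes were called. Between TG saline and WT saline the counts were also 0, where 0.0461% of all genes were called. TG and WT arrays overlapped for each of the 22 probes after either treatment. The difference between the TG and WT cerulein responses was called for 0 member probes and for 0% of all genes. In all 3 comparisons 0 of the 22 member probes reached an unadjusted p below 0.05 in limma. For the 10 brightest probes the 95% intervals stayed within -0.84 to 1.15 after cerulein, within -0.89 to 1.26 after saline and within -1.23 to 1.19 for the difference of responses (log2). Differences of about a doubling therefore lie inside the widest of these intervals. For Srf probe 1 the TG minus WT difference was -0.16 after cerulein (95% interval -0.84 to 0.53) and -0.15 after saline (-0.89 to 0.59).

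The genes whose level followed Srf most closely over the 15 arrays were Cebpb, a bZIP transcription factor (r = 0.991), the small heat shock protein gene Hspb8 (r = 0.991), the phosphatase gene Ptpn14 (r = 0.990), Csrp1, which encodes a LIM protein of actin bundles (r = 0.990), and Actn4, an actin crosslinker (r = 0.989). Of the members, Actg1 (r = 0.985), Tpm4 (0.982), Vcl (0.967), Actb (0.960) and Myh9 (0.945) came closest, followed by Flna (0.763), Tpm2 (0.586), Tpm3 (0.393) and Tpm1 probe 1 (-0.450). Ranked by r among all measured genes, Actg1 was 22, Tpm4 37, Vcl 153, Actb 213 and Myh9 329, so many genes outside the members followed Srf as closely. The cerulein and saline arrays stand apart for Srf, and r over all arrays carries that separation. After each group's mean was taken away, r with Srf was 0.873 for Myh9, 0.842 for Tpm3, 0.815 for Tpm1 probe 1, 0.806 for Vcl, 0.798 for Tpm4, 0.760 for Actg1, 0.647 for Actb, 0.604 for Flna and 0.459 for Tpm2. Tpm3 and Tpm1 probe 1, neither of them called, had a higher r here than Vcl, Tpm4, Actg1 and Actb. The arrays share 3 slides and a scale, and within each cerulein group the slide 3 array was the highest for every member's brightest probe except Tpm2 in TG. The part of slide and scale in these r values was not tested, and no r over all genes was set beside them.

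The lists of other genes of the pathway, 7 in all, held 140 measured genes, 9 of them in more than 1 list. Like the members, these lists were chosen with earlier results of these data known. Their counts stand beside the shares over all genes, of which 4.29% rose and 2.73% fell in TG, and 4.87% rose and 6.35% fell in WT. In the list of SRF cofactors and the RhoA signal that feeds them, most of the 20 measured genes were not called. In TG mice 2 rose, among them Arhgef2, an activator of RhoA, by 2.11 ± 0.42 (adjusted p = 0.00818). In WT mice Arhgef2 rose by 1.98 ± 0.39 (adjusted p = 0.0053), and 2 fell: Arhgef11, another activator of RhoA, by 1.19 ± 0.28 on the log2 scale, and the ternary complex factor Elk3, which fell by 1.03 ± 0.27. Elk3 was not called with slide as a block (-0.68, adjusted p = 0.0833). The list's median was 0.06 in TG and -0.07 in WT, near that of all genes.

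Among 29 other genes known as MRTF-SRF targets, 13 rose in TG and 14 in WT, and none fell, with a median of 0.85 in each genotype. With slide as a block these counts were the same, where 14% of all genes rose in TG and 12.3% in WT. With normexp the list's median was 0.59 in TG and 0.6 in WT. Ccn1, a secreted matrix protein, rose by 4.12 ± 0.47 in TG (adjusted p = 0.000139) and by 4.36 ± 0.44 in WT (adjusted p = 3.05e-05). Tuft1 rose by 3.27 ± 0.26 in TG and by 3.60 ± 0.24 in WT, and Ankrd1, a nuclear and sarcomeric ankyrin repeat protein, rose by 3.11 ± 0.65 in TG and by 4.26 ± 0.61 in WT, where it was well above background on all 4 cerulein arrays and on 2 of 4 saline arrays. Acta2, the smooth muscle actin, is also in this list and differed by -0.03 in WT (adjusted p = 0.951). Of the 10 ternary-complex targets, 5 rose in TG and 6 in WT, with medians of 1.57 in TG and 2.29 in WT. With normexp these medians were 1.08 in TG and 1.06 in WT. Fos rose by 4.07 ± 0.80 in TG and by 4.68 ± 0.74 in WT, and Ier2 by 2.94 ± 0.33 in TG and by 2.97 ± 0.30 in WT. Junb rose by 2.74 ± 0.32 in TG and by 2.72 ± 0.29 in WT, and Egr1 rose by 2.44 ± 0.67 in TG and by 4.12 ± 0.62 in WT. The difference between these Egr1 responses was not called (-1.68, adjusted p = 1). Fos was well above background on 2 of 3 TG saline arrays and on 2 of 4 WT saline arrays.

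Of 37 measured genes that assemble and dismantle filaments 4 rose in TG, and in WT 4 rose and 1 fell, with medians of 0.20 in TG and 0.05 in WT. Those that rose included the depolymerising proteins destrin (Dstn, 3.69 ± 0.44 in TG and 3.43 ± 0.41 in WT) and cofilin 2 (Cfl2, 2.03 ± 0.28 in TG and 2.14 ± 0.26 in WT), and their partner Wdr1 (2.79 ± 0.48 in TG and 2.44 ± 0.44 in WT). With slide as a block 16 genes of this list rose and 2 fell in TG, and 15 rose and 0 fell in WT. Of 16 bundling and membrane-linking genes the same number, 3, rose in each genotype: the crosslinkers Actn4 (1.80 ± 0.29 in TG and 1.86 ± 0.27 in WT) and Actn1 (1.26 ± 0.29 in TG and 1.19 ± 0.27 in WT), and villin (Vil1, 2.23 ± 0.50 in TG and 2.53 ± 0.46 in WT). Wdr1, Actn1 and Vil1 are also in the list of MRTF-SRF targets, so their rises are counted in both lists.

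Of 20 focal adhesion linkers, 3 rose in TG, and in WT 4 rose and 1 fell. Zyxin (Zyx), a sensor of filament tension that is also in the list of MRTF-SRF targets, rose by 2.93 ± 0.34 in TG and by 2.76 ± 0.32 in WT. Bcar1 (1.50 ± 0.33 in TG and 1.84 ± 0.31 in WT) and Fermt2 (1.38 ± 0.31 in TG and 1.37 ± 0.29 in WT) rose in both genotypes, and the filament-binding Nexn (2.08 ± 0.43) rose in WT, where it was well above background on 2 of 4 saline arrays. Fermt1, an integrin activator of epithelia, fell by 1.96 ± 0.46 in WT, where it was well above background on 1 of 4 cerulein arrays and on 3 of 4 saline arrays. The list of non-muscle myosin II and its regulators also holds myosins of other classes. Of its 17 genes, 3 rose in TG and 2 in WT. Among them were the light chain Myl12a (1.71 ± 0.27 in TG and 1.56 ± 0.25 in WT) and the class I myosin Myo1e (1.25 ± 0.33 in TG and 1.28 ± 0.30 in WT). The TG calls of Fos, Egr1, Vil1, Actn1, Bcar1, Fermt2 and Myo1e and the WT calls of Arhgef11, Elk3 and Fermt1 were lost when at least 1 single array was left out (adjusted p up to 0.15). With slide as a block 14% of all genes rose and 6.95% fell in TG, and 12.3% rose and 6.08% fell in WT. Under it 5 genes of the list of cofactors and RhoA signal rose in TG and 4 in WT, and 1 fell in each. In bundling 5 rose in TG and 6 in WT, and in focal adhesion 7 rose in each and 1 fell in WT. In the myosin list 8 rose and 1 fell in TG, and 7 rose in WT. Of the ternary-complex targets 6 rose in TG and 7 in WT, and 1 fell in each. No gene of the 7 lists was called between the genotypes without the block. With it 1 was, the secreted matrix protein gene Ccn2, at 1.06 between TG cerulein and WT cerulein mice (adjusted p = 0.00384) and at 0.92 between TG saline and WT saline mice (adjusted p = 0.019), where 0.404% and 0.0865% of all genes were called.

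**Figure D5:**
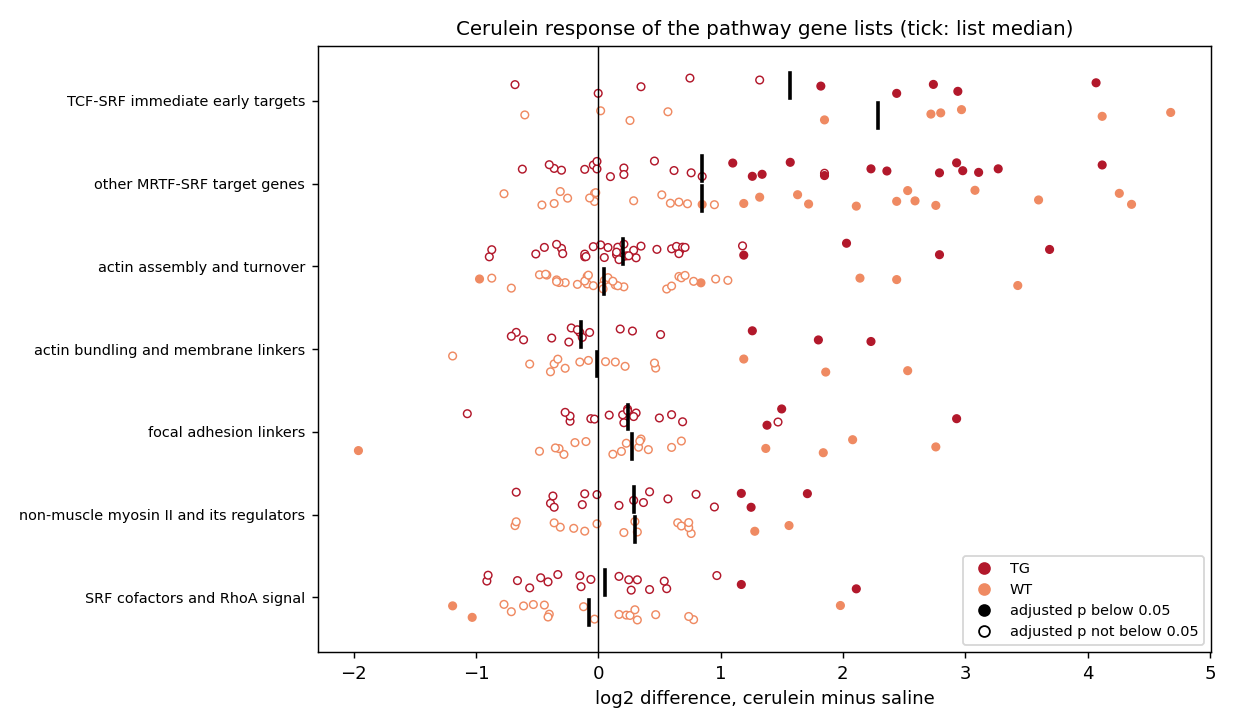
Cerulein minus saline difference (x axis, log2) of every measured gene of the 7 pathway lists in TG and WT mice, with a tick at each list's median and filled points where the adjusted p is below 0.05. The MRTF and ternary-complex target lists lie furthest right, with medians of 0.85 to 2.29, and the other 5 lists have medians of -0.14 to 0.30.

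Beyond the members, 238 measured genes have a CArG box in their promoter window. Of these, 20 (8.4%) rose and 5 (2.1%) fell in TG, where 4.29% of all genes rose and 2.73% fell. In WT 22 (9.24%) rose and 10 (4.2%) fell, where 4.87% of all genes rose and 6.35% fell. Their median difference was 0.05 in TG and 0.04 in WT. Genes of the pathway lists were not taken out of the 238, and the overlap was not counted.

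Markers of other cells that hold much actin were set beside these rises. Over all genes 4.29% rose and 2.73% fell in TG, and 4.87% rose and 6.35% fell in WT. A count of 0 in a list this short is therefore near the share over all genes. Of the smooth muscle and pericyte markers, Acta2, Myh11, Tagln, Cnn1, Actg2 and Smtn are also in the list of MRTF-SRF targets. Of 10 smooth muscle and pericyte markers 9 were measured and 0 were called in either response, and their mean level was -0.31 to 0.84 in TG cerulein mice, -0.32 to 0.42 in TG saline mice, -0.37 to 0.17 in WT cerulein mice and -0.42 to 0.03 in WT saline mice. None of the 7 endothelial, 8 fibroblast or 6 platelet markers was called in either response. Of 7 neutrophil markers 1 rose in TG (Clec4d) and 3 in WT (S100a8, S100a9 and Clec4d), and of 6 macrophage markers 1 rose in each (Cd14). Of 6 duct cell markers Sox9 fell in both genotypes and Epcam rose in WT. The mean level of the 7 neutrophil markers was -0.13 to 0.66 in TG cerulein mice and -0.48 to 0.59 in TG saline mice, and -0.59 to 0.62 in WT cerulein mice and -1.89 to -0.39 in WT saline mice. The mean level of the 8 fibroblast and stellate cell markers was 1.96 to 3.54 in TG cerulein mice and 0.51 to 1.72 in WT cerulein mice, and 2.14 to 2.83 in TG saline mice and 1.27 to 1.79 in WT saline mice. Of these 8 markers 1, Lum, was called between TG cerulein and WT cerulein mice (2.54, adjusted p = 0.0276), a call that was lost when at least 1 single array was left out (adjusted p up to 0.135). Lum, Dcn and Col1a2 were called with slide as a block (adjusted p of 0.0145, 0.0176 and 0.0359). The mean of 11 acinar markers was 8.26 to 9.09 in TG cerulein mice and 8.86 to 9.51 in TG saline mice, and 8.31 to 9.47 in WT cerulein mice and 9.05 to 9.78 in WT saline mice. Of these 11, Ptf1a rose (1.68 ± 0.36 in TG and 1.17 ± 0.33 in WT) and Rbpjl fell (-1.73 ± 0.31 in TG and -1.81 ± 0.28 in WT), both transcription factors of the acinar cell. The calls of Clec4d and Sox9 in TG, of S100a8, S100a9 and Epcam in WT and of Ptf1a in both were lost when at least 1 single array was left out (adjusted p up to 0.218). The part of these cell types in the member genes' rises was not tested.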

How the data were processed

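Total RNA of whole pancreas was labelled with Cy3 and hybridised to one-colour Agilent arrays, 1 per mouse. Per the file headers, the authors obtained the deposited spot intensity with Agilent Feature Extraction 10.7.3.1, which subtracts background within each array. The deposited flag columns (other: 0 or 1 per spot) mark outliers, saturation and signal well above background. The deposited series table holds log2 values normalised by the authors in a way not given in the sources used here; 42379 of its 42482 probes are also scanner probes. Each column followed that array's log2 signal (r = 0.987 to 0.998) with a median of 6.56 to 6.93, which gives a log2 scale with no centring per gene. It was compared with, and did not replace, the scanner values.

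Of 59305 non-control spots per array, 105 to 188 with an outlier flag were left out, and spots of a probe were averaged (55681 probes). Probes were named through unversioned RefSeq accessions, 27235 by 1 symbol and 28446 by none. Log2 signal, less the 75th percentile of its array, was tested with limma 3.58.1 in R 4.3.3 (with the data.table package, version 1.17.8), lmFit and eBayes on 4 group means of all 15 arrays, with 11 residual and 3.26 prior degrees of freedom, over 42191 probes well above background on at least 3 arrays (17347 genes). The fit was tested on simulated data, in the comparison of WT cerulein with WT saline. It called 18% of the probes changed by 1 log2 unit and 65% of those changed by 2 units, with 7 false calls. Few probes were changed there, and the share called depends on that number. The simulated noise was independent between probes and held no slide effect, so the false calls do not cover errors that probes share. The number of arrays limits the precision.

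Members, lists and markers were chosen with earlier results of these data known. Genes named are the members, Btc, the 3 called genes with the largest difference in each pathway list and response (all where 3 or fewer were called), and the 5 genes most correlated with Srf; not all are described, and Acta2, Ccn2 and the marker genes named singly were chosen after their values were seen. Alternatives were normexp (offset 50, run on the median signal since no mean signal was in the files), quantile normalisation, the array median, the authors' deposited values, other filters, slide as a block, single slides, the brightest probe of each gene alone, array weights and leaving out each array. All columns of samples were used in some step. The values of 1 gene of these lists are not reported here.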

Additional observations from a re-analysis of the deposited data

Results flagged for a closer look

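One value among the member probes stood apart from its group by Dixon's criterion for groups of 4. WT saline replicate 8 had the highest level of Tpm3 probe 1, at 4.80 (log2 signal minus the array's 75th percentile), while the nearest of the other WT saline arrays was at 4.30, a gap of 0.932 of the group's range. In all 66 groups of 4 arrays were examined, and chance flags about 1 in 20 such groups.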

How the results depend on the processing

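The number of member genes that rose was 5 to 6 in TG and 5 to 6 in WT when each of the 15 arrays was left out in turn, and 5 to 8 in TG and 5 to 7 in WT under the 10 other settings that give a test. None of the 32 called differences of member probes changed sign in any setting, and 60 of those not called did so in at least 1 (Tpm3 probe 1 in WT, at -0.01, was 0.41 with slide as a block). With array weights the count of member genes that fell was 1 in TG and 1 in WT, against 0 in each without weights; the gene was Tpm1 by probe 1 (-0.47, adjusted p = 0.011 in TG, and -0.51, adjusted p = 0.0191 in WT), under a setting that called 8587 probes higher and 10243 lower in TG and 7976 higher and 9949 lower in WT. Without weights the counts were 1388 and 1104 in TG and 1708 and 2072 in WT. They were 4177 and 2944 in TG and 3826 and 2228 in WT with slide as a block, 642 and 334 in TG and 808 and 1194 in WT with the array median, and 1376 and 2105 in TG and 1300 and 3801 in WT with normexp. Normexp moved the median of all probes to -0.24 in TG and -0.24 in WT, against -0.04 in TG and 0.05 in WT, and the array median moved it to -0.15 in WT. The cause of these shifts was not tested. Of 44 called differences of named list genes and Btc, 12 lost their call with the array median and 2 with normexp. Under normexp the Tpm1 excess of probe 4 over probe 1 was 3.22 in TG and 3.06 in WT. No paired analysis was possible because the groups share no replicate numbers. Dim probes near background, such as Vcl probe 2, are limited by signal.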
